A study of Mus musculus with 42 samples.

Results

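The genes described here are the 5 core genes of the angiopoietin and Tie receptor system, Angpt1, Angpt2, Tek, Tie1 and Ptprb, taken by name from the 21674 named genes of an RNA-seq table on mouse carotid intima. All 5 were in the table, and all 5 passed the filter on low counts in each experiment. The set was chosen by name with earlier results of these data known, and was selected on the untreated 48 hr levels in so far as Angpt2 was known to differ there between low-flow and high-flow arteries. The untreated 48 hr levels are therefore given as a description without a test, and tests are given for other libraries.

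Low flow was made by partial ligation of the left carotid artery, and the contralateral artery of the same animals carried high flow. Intimal RNA was flushed from the vessel, and each artery library was a pool of 3 to 5 arteries. The untreated 48 hr experiment had 3 low-flow pools (A, B and C), 3 high-flow pools (D, E and F) and 3 sham-operated pools (G, H and I), all from male C57BL/6J mice aged 6 to 7 weeks. In the treated 48 hr experiment, mice of the same strain, sex and age received non-specific IgG, anti-GPIba to deplete platelets, anti-Gr1 to deplete granulocytes, clodronate liposomes to deplete macrophages, or PBS liposomes as the liposome control. It had 2 low-flow libraries for each of these 5 agents and 2 high-flow libraries each for IgG and PBS liposomes. A further low-flow 48 hr library with PBS liposomes and another with clodronate liposomes were sequenced with 100 bp reads. Those libraries count in the levels and ratios but enter no comparison. No depleted high-flow artery was sequenced, so each depletion was compared at low flow, or set against high flow with the control agent.

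At 7 d after ligation, arteries came from mice 2 to 7 months old of both sexes. Both genotypes were homozygous for Rbfox2 lox and carried the Rosa26-mTmG reporter. The Rbfox2 EC-KO mice also had the Cre transgene Cdh5(PAC)-CreERT2, which their littermate controls lacked. The Cre is driven by the Cdh5 promoter, so the other cells of an intimal flush keep Rbfox2. There were 3 low-flow and 2 high-flow libraries for each genotype. Cultured cells gave 7 further libraries with 1 per condition: 4 from an aortic endothelial line immortalized with TetOn-SV40 and 3 from sorted primary aortic endothelial cells. The line had no additions in 1 library, platelets and macrophages in another, 10% plasma in the next and all 3 in the last, and the primary cells were eGFP-positive Cdh5(PAC)-CreERT2 Rosa26-mTmG cells, Rbfox2 EC-KO cells and Rbfox2 control cells. Of the 42 samples in 23 groups, 35 were arteries.

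The angiopoietins are secreted ligands of the endothelial receptor tyrosine kinase Tek, also called Tie2. Angpt1, made largely by mural and other supporting cells, is the agonist that keeps the endothelium quiescent, while Angpt2 is made by endothelial cells, is stored in their Weibel-Palade bodies and acts as a weak agonist or antagonist depending on context. Tie1 has no angiopoietin ligand of its own and modulates Tek in a complex with it, and Ptprb, also called VE-PTP, is the endothelial receptor phosphatase that removes phosphate from Tek.

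In the mm9 annotation (NCBIM37) Angpt2 (ENSMUSG00000031465) lay on the minus strand at chr8:18690263-18741562 and Angpt1 (ENSMUSG00000022309) on the minus strand at chr15:42256273-42508523. Tek (ENSMUSG00000006386) was at chr4:94405980-94541667 on the plus strand, Tie1 (ENSMUSG00000033191) at chr4:118143796-118162666 on the minus strand and Ptprb (ENSMUSG00000020154) at chr10:115712579-115826594 on the plus strand. The RSEM options given for counting set no strand, so overlapping genes bear on the counts; for the untreated pools a stranded library type is named for mapping alone. The whole of Angpt2 lay inside Mcph1 on the opposite strand with 0 shared exon bases, and Mcph1 itself ranged from 0.723 to 5.05 FPKM (counts per kb of effective transcript length, scaled to the library total) in the 15 low-flow and from 0.997 to 2.20 FPKM in the 7 high-flow 48 hr libraries. Angpt1 shared 283 exon bases with the antisense lincRNA Gm17473, whose reads could not be told apart from its own.

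RefSeq promoter windows, 250 bases before to 50 after the annotated start in GRCm38.p6, were at hand for Tek and Tie1. They were searched on both strands because endothelial receptor genes are known to be driven through ETS factors, whose core motif is GGAA, and because CCACACCC, TGANTCA and TGTTTAC are the letters read by Klf, AP-1 and forkhead factors. The core GGAA occurred 2 times in the Tek window and 9 times in that of Tie1, but 96.0% of the 32851 promoters of this length held it. CCACACCC was found 1 time in the Tie1 window and 0 times in that of Tek, against 3.56% of all promoters. TGANTCA (7.81% of promoters) and TGTTTAC (3.65%) were absent from both windows. The stretches below show both matches to the ETS core in Tek, the one farthest upstream in Tie1, whose stretch holds 2 matches, and the Tie1 match to CCACACCC. Capitals mark the matches to the motif named on each line, printed 5′ to 3′ in the direction of the gene; TTCC is the ETS core read on the opposite strand. They lie at chr4:94739187-94739216 and chr4:94739217-94739246 (plus strand) and at chr4:118490064-118490093 and chr4:118489904-118489933 (minus strand), and the first matches in them begin 89, 59, 231 and 73 bases before the start. The RefSeq span of Tek begins 203 bases upstream of the start used for its window.
Tek, first match to the ETS core: gcttgttattcaaTTCCtggcctatgagag
Tek, next match to the ETS core: gatacccctattgTTCCtgaaaatgctgac
Tie1, ETS core: cttctcaataggcGGAAgccactggcTTCC
Tie1, CCACACCC: agacttccaggCCACACCCatcccgggctt

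Several facts of the libraries bear on the results. Total counts per library were 4064477 to 6794904 in the untreated pools, 12286104 to 19035957 in the treated, 10318685 to 18633538 in the 7 d and 4989843 to 16394043 in the culture libraries. The untreated pools A and B stood apart: 22.8% and 23.5% of their counts fell in their 10 most abundant genes, against 9.27% to 10.6% in the other untreated pools, and TMM scaling gave them factors of 0.556 and 0.562 against 1.115 to 1.296. By the run prefixes in the read-file names of the table's header, the treated low-flow libraries came from another run than the treated high-flow libraries, so flow and run cannot be told apart there, while the depletion comparisons at low flow lie within 1 run. The summed level of 8 endothelial markers ranged from 2261 to 4126 FPKM in the 21 low-flow artery libraries and from 4333 to 5262 FPKM in the 11 high-flow libraries, with no overlap and no marker at 0. The list went both ways. Of the 8 genes, 1 rose and 3 fell at low flow with IgG, 2 rose and 3 fell with PBS liposomes, and 2 rose and 2 fell in untreated pools. With IgG, Emcn, an endothelial sialomucin, rose (log2 2.25) and Pecam1, an adhesion molecule, fell (log2 -2.27). Macrophage markers (8 genes) summed to 189 to 3469 FPKM at low and 43.4 to 247 FPKM at high flow, neutrophil markers (5 of 6 listed genes in the table) to 3.78 to 1193 and 2.00 to 29.96 FPKM, and mural markers (8 genes) to 415 to 3673 and 120.2 to 466 FPKM. Fibroblast markers (5 genes) summed to 22.1 to 1584 and 86.4 to 301 FPKM, and adipocyte markers (5 genes) to 15.4 to 517 and 8.04 to 3284 FPKM. The macrophage, neutrophil, mural, fibroblast and adipocyte sums each overlapped between low and high flow. Within the mural list, with IgG, the contractile genes Acta2 (log2 3.28) and Tagln (2.87) rose and Pdgfrb, a pericyte receptor, fell (-1.87), and the list's median was -0.97. In such bulk RNA, fewer endothelial cells and less RNA of a gene per cell cannot be told apart, and the part of these shifts in the results was not tested.

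Among the members, Angpt2 had the widest range over the artery libraries. In untreated arteries it stood at 104, 182 and 147 FPKM in low-flow pools A, B and C, at 0.705, 1.48 and 1.23 FPKM in high-flow pools D, E and F, and at 2.64, 2.43 and 6.50 FPKM in sham pools G, H and I. The 3 groups did not overlap, and the order of the mean levels was low flow (144 ± 38.9, SD, n = 3), sham (3.86 ± 2.29, n = 3) and high flow (1.14 ± 0.395, n = 3). As a description, the log2 fold-change was 7.74 (SE 0.55) for low over high flow, 6.05 (SE 0.50) for low flow over sham and -1.69 (SE 0.52) for high flow over sham. The low-flow values depend on scaling: with TMM, pools A, B and C held 187.6, 323.8 and 131.1 FPKM. With library totals the low over high value was smaller. High-flow values rested on 7, 21 and 13 counts. These comparisons share their pools, and 47.6%, 42.2% and 0.0% of the 11546 genes tested passed an adjusted p of 0.05 in them. For high flow against sham, edgeR called 0 genes and DESeq2 called 177, and 1010 genes had an unadjusted edgeR p below 0.05.

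In the treated experiment, whose libraries are other than the untreated pools, the low-flow and high-flow levels of Angpt2 again lay far apart. With IgG the low-flow libraries held 129 and 215 FPKM and the high-flow libraries 1.19 and 0.473 FPKM. With PBS liposomes the low-flow libraries held 395 and 113 FPKM and the high-flow libraries 0.712 and 1.58 FPKM. Angpt2 rose at low flow by 198-fold with IgG (log2 fold-change 7.63, SE 1.14, adjusted p = 0.00114) and by 239.5-fold with PBS liposomes (7.90, SE 1.14, adjusted p = 0.000873) in edgeR's quasi-likelihood test. All 5 genes passed the test in both comparisons, where 40.5% and 35.0% of the 13401 genes tested did so. The flow effect did not pass a test of difference between the PBS liposome and IgG arms for any of the 5 (0 of 13401 genes called, 801 with an unadjusted p under 0.05, 30 called by DESeq2).

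**Figure D1:**
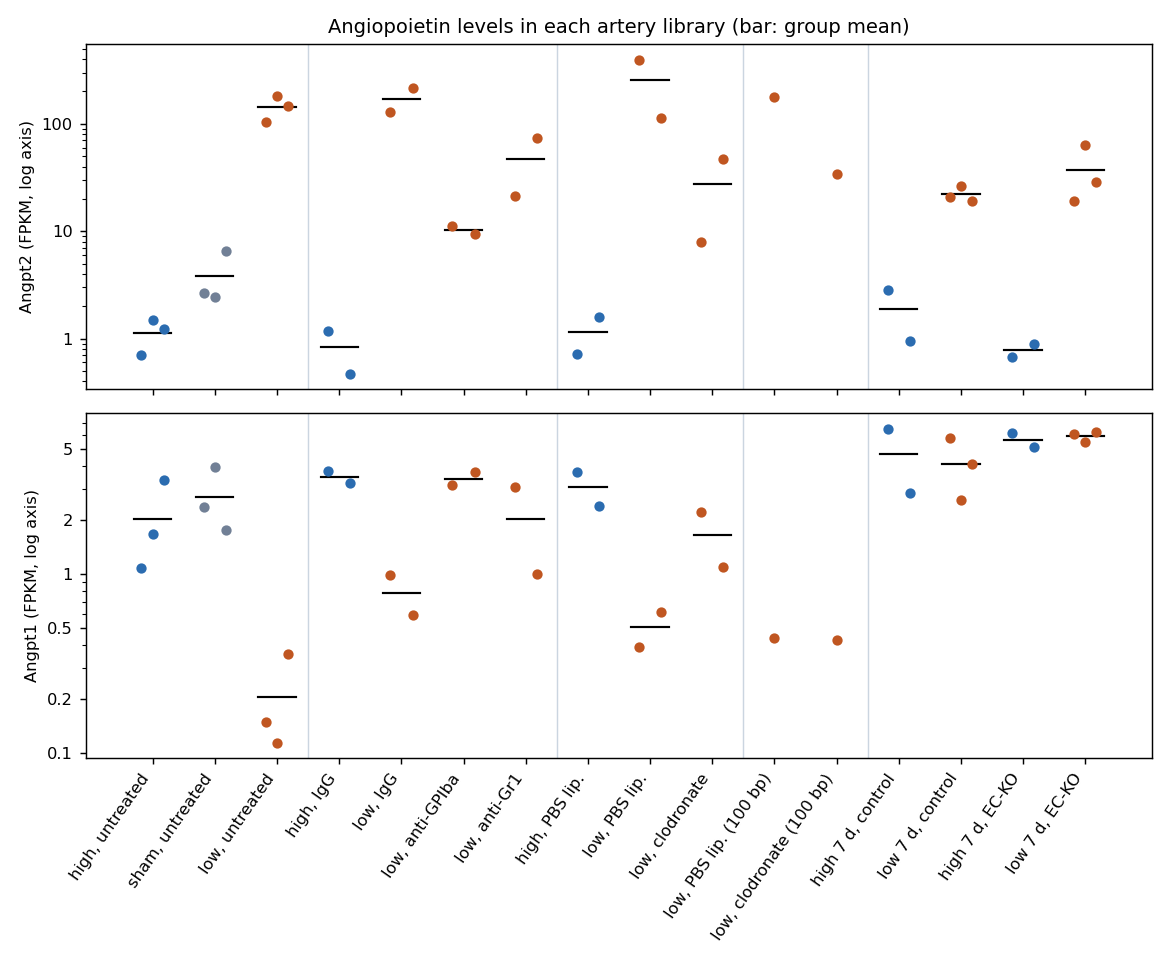
FPKM of Angpt2 and Angpt1 on log axes in each artery library, by group, with points for libraries (orange for low flow, blue for high flow, grey for sham) and a bar for the group mean. Angpt2 lay between 7.98 and 395 FPKM in all 15 low-flow 48 hr libraries and between 0.473 and 1.58 FPKM in all 7 high-flow 48 hr libraries, while Angpt1 spanned 0.115 to 3.69 and 1.07 to 3.75 FPKM and overlapped. Both sets include the untreated pools, on whose Angpt2 levels the choice of genes drew.

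Angpt1 moved the other way at 48 hr and was low in every 48 hr group. Untreated pools A, B and C held 0.150, 0.115 and 0.357 FPKM (4, 2 and 8 counts), high-flow pools 1.07, 1.67 and 3.36 FPKM and sham pools 2.35, 3.94 and 1.77 FPKM. Low flow lay below both other groups, and the high-flow and sham groups overlapped. The described log2 fold-change was -2.62 (SE 0.53) against high flow and -2.95 (SE 0.52) against sham. These values depend on scaling: with TMM, pools A, B and C held 0.269, 0.204 and 0.319 FPKM. In the treated experiment Angpt1 stood at 0.988 and 0.588 FPKM (low) and 3.75 and 3.21 FPKM (high) with IgG, and at 0.393 and 0.614 FPKM (low) and 3.69 and 2.40 FPKM (high) with PBS liposomes. It fell at low flow in both arms, by 4.68-fold (log2 -2.23, SE 0.55, adjusted p = 0.0094) and by 5.61-fold (log2 -2.49, SE 0.56, adjusted p = 0.00663). The IgG call was lost without low-flow IgG library 2 (adjusted p = 0.0906), and the PBS call without high-flow library 1 (0.0587) or low-flow library 1 (0.0574).

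The ratio of the ligands within a library, per length, separated the low-flow from the high-flow libraries. Angpt2 exceeded Angpt1 in all 15 low-flow 48 hr libraries, by 2.54-fold to at least 1059-fold, and lay below it in all 7 high-flow 48 hr libraries, at a ratio of 0.147 to 0.886. The highest value, in pool B, is a lower bound because its 2 Angpt1 counts were set to a floor of 3 counts per library. Both sets include the untreated pools, on whose Angpt2 levels the choice of genes drew. Without them the ratio ran from 2.54 to 1006 at low flow and from 0.147 to 0.659 at high flow. Sham pools fell on both sides of 1, at 1.12, 0.616 and 3.67. At 7 d the ratio was 3.17 to 11.6 in the 6 low-flow and 0.112 to 0.437 in the 4 high-flow libraries.

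**Figure D2:**
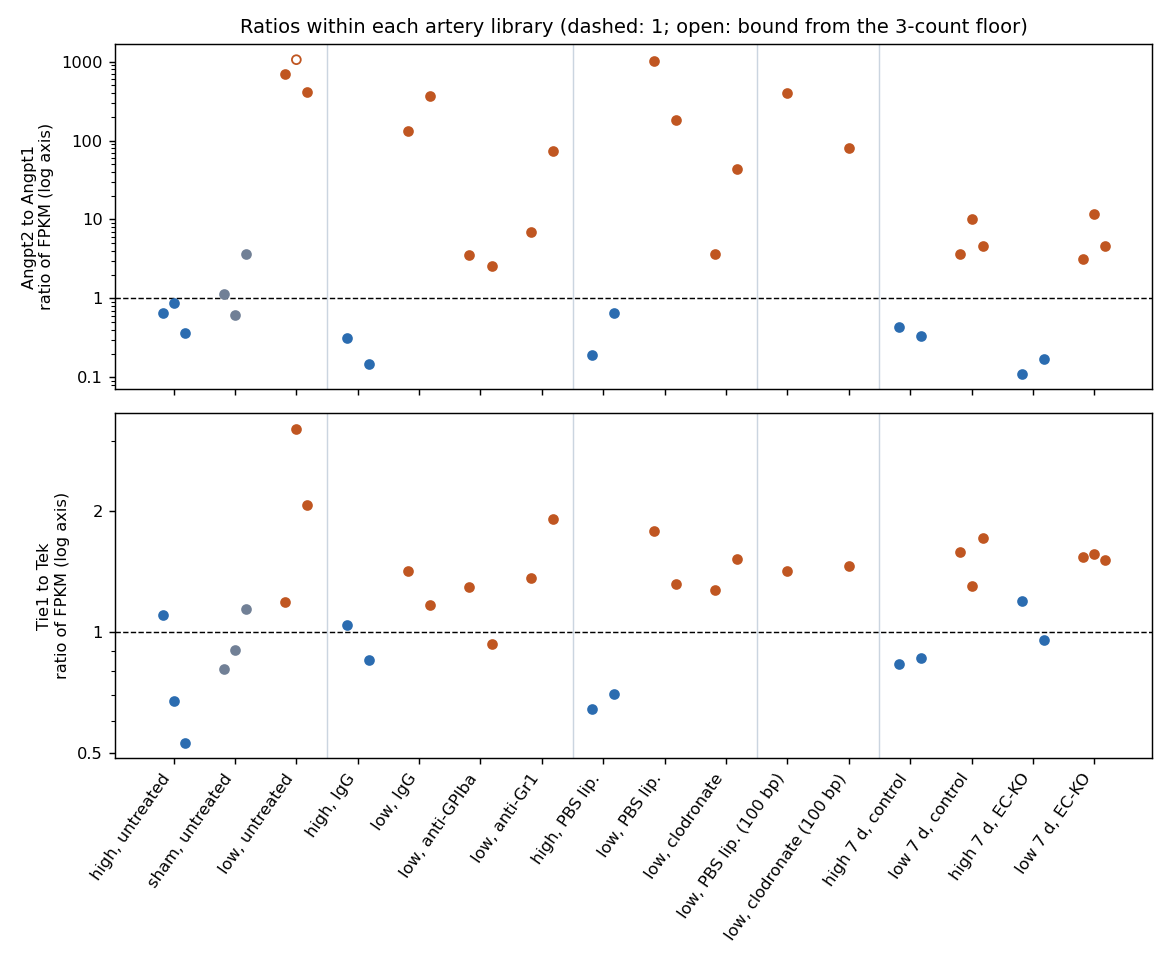
Ratio of FPKM within each artery library on log axes, Angpt2 to Angpt1 above and Tie1 to Tek below, with low flow in orange, high flow in blue, sham in grey, a dashed line at 1 and an open point for a bound set by the 3-count floor. All 21 low-flow libraries lie above the line and all 11 high-flow libraries below it for the ligands, while the receptors cross it in both sets. Both sets include the untreated pools, on whose Angpt2 levels the choice of genes drew.

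Tek, the receptor for both ligands, was lower at low flow. Untreated low-flow pools held 27.5, 17.7 and 39.3 FPKM, high-flow pools 79.1, 133 and 134 FPKM and sham pools 109.8, 126 and 83.0 FPKM. The low-flow pools lay below all the others, and high flow and sham overlapped, with a described log2 fold-change of -1.35 (SE 0.26) for low against high flow and 0.19 (SE 0.25) for high flow against sham. With library totals in place of TMM, the low against high value was -2.03, since TMM scales the counts of pools A and B up. With IgG the treated levels were 80.3 and 85.4 FPKM at low and 294 and 299 FPKM at high flow. With PBS liposomes they were 40.9 and 60.0 FPKM at low and 358 and 268 FPKM at high flow. Tek fell at low flow by 3.79-fold (log2 -1.92, SE 0.26, adjusted p = 0.000797) and by 5.78-fold (log2 -2.53, SE 0.26, adjusted p = 0.000169), and both calls held under each alternative and each library left out.

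Tie1, the partner receptor, gave the smallest difference of the 3 endothelial members. Untreated low-flow pools held 32.8, 57.0 and 81.6 FPKM, high-flow pools 87.4, 89.4 and 71.1 FPKM and sham pools 89.1, 114 and 94.8 FPKM, so that low and high flow overlapped through pools C and F. Its direction between untreated low and high flow turned with the scaling: the log2 fold-change was 0.13 (SE 0.24) with TMM and -0.53 with library totals, under which the median of all genes moved from -0.07 to -0.70. In the treated libraries it stood at 114 and 99.7 FPKM (low) and 306 and 256 FPKM (high) with IgG, and at 73.1 and 79.1 FPKM (low) and 232 and 188 FPKM (high) with PBS liposomes. It fell at low flow by 2.78-fold (log2 -1.47, SE 0.25, adjusted p = 0.00193) and by 2.56-fold (log2 -1.35, SE 0.25, adjusted p = 0.00284).

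Ptprb, the phosphatase, followed Tek with more spread. Untreated low-flow pools held 12.0, 7.00 and 36.0 FPKM, high-flow pools 100.1, 136 and 132 FPKM and sham pools 113, 141 and 90.1 FPKM. Low flow again lay below both other groups, which overlapped, with a described log2 fold-change of -2.25 (SE 0.34) against high flow and -2.09 (SE 0.34) against sham. These values depend on scaling: with TMM, pools A, B and C held 21.65, 12.46 and 32.18 FPKM. Treated levels were 77.8 and 33.6 FPKM (low) and 338 and 398 FPKM (high) with IgG, and 34.0 and 21.2 FPKM (low) and 228 and 100.4 FPKM (high) with PBS liposomes. The fall was 7.04-fold (log2 -2.82, SE 0.55, adjusted p = 0.00346) and 5.54-fold (log2 -2.47, SE 0.55, adjusted p = 0.00606), and the PBS call was lost without high-flow library 1 (adjusted p = 0.0687) or low-flow library 2 (0.0626).

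Per length, Tie1 exceeded Tek in 14 of the 15 low-flow 48 hr libraries (ratio 0.933 to 3.21), the exception being anti-GPIba library 2. In the 7 high-flow 48 hr libraries the ratio was 0.531 to 1.10, with 2 above 1. When counts were scaled to the endothelial markers, the IgG flow effects on Tek, Tie1 and Ptprb kept their direction and their call, with log2 fold-changes of -1.43, -0.998 and -2.36, while the median of all genes moved from 0.07 to 0.56 and the genes called higher and lower from 3053 and 2369 to 4531 and 1102.

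**Figure D3:**
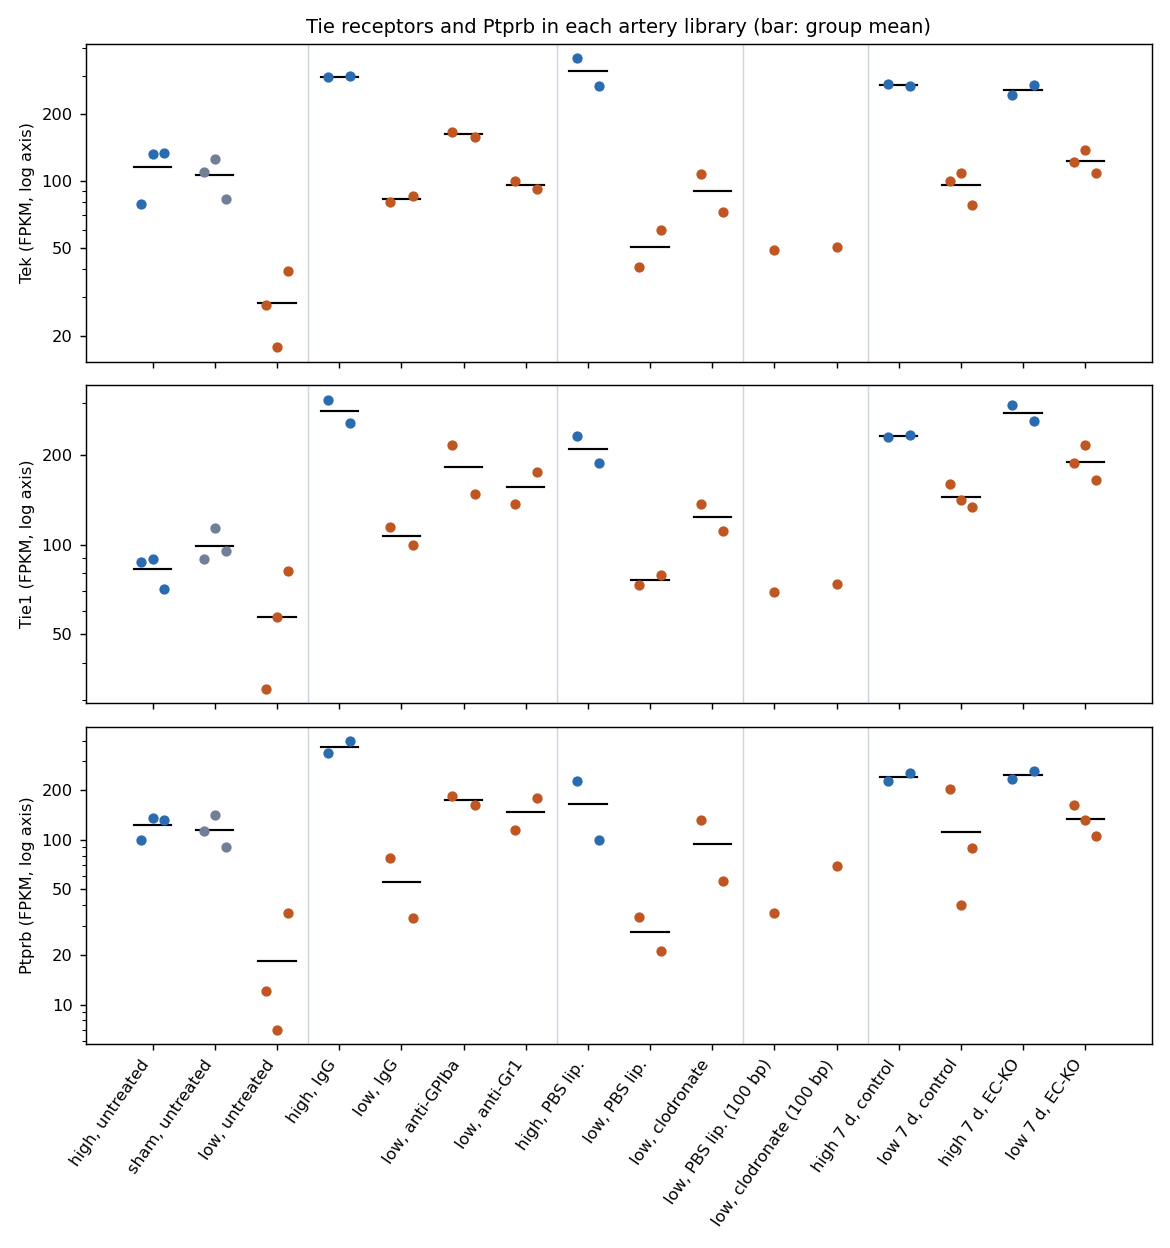
FPKM of Tek, Tie1 and Ptprb on log axes in each artery library, by group, with points for libraries (orange for low flow, blue for high flow, grey for sham) and a bar for the group mean. Tek lies at 17.7 to 167 FPKM in the low-flow and 79.1 to 358 FPKM in the high-flow 48 hr libraries, and for Tek the anti-GPIba libraries, at 167 and 158 FPKM, are the highest low-flow libraries.

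Platelet-depleted low-flow arteries were compared with IgG low-flow arteries. With anti-GPIba, low-flow arteries held 11.2 and 9.38 FPKM of Angpt2 against 129 and 215 with IgG, and 3.13 and 3.69 FPKM of Angpt1 against 0.988 and 0.588. Tek stood at 167 and 158 FPKM against 80.3 and 85.4, Tie1 at 217 and 147 against 114 and 99.7, and Ptprb at 186 and 163 against 77.8 and 33.6. None of the 5 overlapped between the groups, and neither did 74.2% of all genes tested. Angpt2 fell 17.1-fold (log2 -4.10, SE 0.93, adjusted p = 0.0263), Angpt1 rose 4.24-fold (log2 2.09, SE 0.55, adjusted p = 0.0338) and Tek rose 1.92-fold (log2 0.94, SE 0.25, adjusted p = 0.0345). Tie1 (log2 0.74, SE 0.25, adjusted p = 0.0615) and Ptprb (log2 1.62, SE 0.53, adjusted p = 0.0561) did not pass. Thus 3 of 5 members were called, where 16.5% of genes were. Each of the 3 calls was lost when any 1 of the 4 libraries was left out, with Angpt2 at adjusted p = 0.0511 without IgG library 1 and 0.132 to 0.16 without the others, and the Tek call was also lost with endothelial marker scaling (log2 0.57, adjusted p = 0.109).

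The marker lists moved with platelet depletion too. Platelet markers (7 genes) summed to 16.2 to 31.6 FPKM with anti-GPIba and to 42.3 to 47.8 FPKM with IgG. Of the 6 platelet genes tested, 1 was called higher and 1 lower, with a median log2 fold-change of -1.68. Endothelial markers summed to 3963 and 4126 FPKM with anti-GPIba and to 2688 and 2458 FPKM with IgG. Macrophage markers summed to 189 and 298 against 2278 and 2126 FPKM, neutrophil markers to 5.56 and 15.1 against 410.2 and 112 FPKM, and mural markers to 415 and 579.9 against 2617 and 2774 FPKM. Within the mural list Acta2 (log2 -2.90) and Tagln (-1.58) fell and Pdgfrb rose (2.03), with a median of 0.48. Fibroblast markers, at 239 and 486 against 115 and 90.1 FPKM, lay higher with anti-GPIba. Their part in the member results was not tested.

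Platelet-depleted low-flow arteries were also set against high-flow arteries with IgG. These groups came from different runs, so flow and run cannot be told apart. Against high flow with IgG, 1 of 5 members was called (7.7% of genes were): Tek was 1.98-fold lower (log2 -0.98, SE 0.25, adjusted p = 0.039), a call lost without any 1 of the 4 libraries (adjusted p = 0.111 to 0.25). Angpt2 was 11.6-fold higher (log2 3.53, SE 1.00) at an adjusted p of 0.0521, which passed with RLE scaling (0.049) and DESeq2 (0.00386). Angpt1 differed by -0.14 (SE 0.52, log2) and overlapped the high-flow libraries, an interval too wide to show equal levels. Tie1 stood at 147 to 217 FPKM against 256 to 306 FPKM at high flow. Ptprb stood at 163 to 186 against 338 to 398 FPKM, and neither was called. With endothelial marker scaling the Tek call was lost as well.

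Granulocyte-depleted low-flow arteries were set against the same IgG low-flow libraries. Anti-Gr1 libraries held 21.1 and 72.9 FPKM of Angpt2 and 3.07 and 1.00 FPKM of Angpt1, both between the IgG low-flow and high-flow values. Tek was 99.9 and 91.8 FPKM, Tie1 136 and 176 FPKM and Ptprb 115 and 180.0 FPKM. None of the 5 overlapped its IgG low-flow levels, as for 51.1% of all genes tested, and 0 of 5 passed against IgG, where 0.0% of genes did (0 of 13401 called, 2432 with an unadjusted p under 0.05, 197 called by DESeq2). Angpt2 differed by -1.83 (SE 0.85, log2, adjusted p = 0.279) and Ptprb by 1.44 (SE 0.53, adjusted p = 0.243). Against high flow with IgG, 3 of 5 were called, where 13.1% of genes were: Angpt2 was higher (log2 5.80, SE 1.07, adjusted p = 0.00889), and Tek (log2 -1.70, SE 0.26, adjusted p = 0.00575) and Tie1 (log2 -0.91, SE 0.25, adjusted p = 0.0375) were lower. The Angpt2 call was lost without either high-flow IgG library (adjusted p = 0.0555 and 0.0537). That of Tie1 was lost without anti-Gr1 library 1 or either high-flow library (0.0729 to 0.169). Marker sums with anti-Gr1 were 22.6 and 40.1 FPKM for neutrophils (410.2 and 112 with IgG at low flow) and 1110 and 1199 FPKM for macrophages (2278 and 2126). For mural cells they were 1065 and 3673 FPKM, on either side of the IgG values of 2617 and 2774, and for fibroblasts 405 and 212 against 115 and 90.1 FPKM. Endothelial markers summed to 3416 and 2639 against 2688 and 2458 FPKM, and the part of these lists in the member levels was not tested.

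The 2 clodronate libraries differed widely in Angpt2. Angpt2 stood at 7.98 and 47.2 FPKM against 395 and 113 with PBS liposomes, and Angpt1 at 2.21 and 1.09 FPKM against 0.393 and 0.614. Tek was 108 and 72.7 FPKM against 40.9 and 60.0, Tie1 137 and 111 against 73.1 and 79.1, and Ptprb 132 and 56.1 against 34.0 and 21.2. The groups did not overlap for any of the 5, as for 51.5% of all genes tested, and 0 of 5 passed, where 0.119% of genes did (16 of 13401). Angpt2 differed by -3.30 (SE 0.90, log2, adjusted p = 0.177). Without clodronate library 2 it differed by -5.11 at an adjusted p of 0.0343, and Tek (0.0491) and Ptprb (0.0435) passed as well, where 6.69% of genes were called. DESeq2 called Angpt2 (adjusted p = 0.0198) and Ptprb (0.0251). In a further pair of single 100 bp libraries, clodronate and PBS levels were 34.4 and 176 FPKM of Angpt2 and 69.1 and 36.0 FPKM of Ptprb. Angpt1 (0.431 and 0.438), Tek (50.3 and 48.8) and Tie1 (73.8 and 69.4) hardly differed in that pair.

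Clodronate-treated low-flow arteries were also set against high flow with PBS liposomes, where 7.41% of genes were called. Of the 5 members 2 passed: Angpt2 was higher (log2 4.61, SE 1.00, adjusted p = 0.0198) and Tek lower (log2 -1.80, SE 0.26, adjusted p = 0.00304). Without clodronate library 2 the Angpt2 value was 2.81 (adjusted p = 0.154), and its call was also lost without high-flow library 1 (0.222) or 2 (0.0672). With the 2 groups fitted alone both calls were lost (adjusted p = 0.139 for Angpt2 and 0.135 for Tek), where 0.0% of genes were called. Macrophage markers summed to 233 and 233 FPKM with clodronate, against 1313 and 2192 FPKM with PBS liposomes, and endothelial markers to 4126 and 3187 against 2485 and 2718 FPKM. Neutrophil markers (50.5 and 67.9 against 166 and 479 FPKM) and mural markers (1446 and 1558 against 3557 and 1777 FPKM) did not overlap either, fibroblast markers (176 and 59.6 against 82.5 and 57.9 FPKM) did, and the part of these lists was not tested.

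Anti-GPIba and anti-Gr1, which share the IgG control, were also compared with each other. Between anti-GPIba and anti-Gr1, 0 of 5 members passed, with 0.0% of genes called (1409 with an unadjusted p under 0.05, 352 called by DESeq2). Angpt2 was lower with anti-GPIba (log2 -2.27, SE 0.87, adjusted p = 0.395), Tek higher (0.72, SE 0.25, adjusted p = 0.344), and Tie1 and Ptprb overlapped. Along the 7 treated groups the mean Angpt2 level ran from PBS low flow (254 FPKM), IgG low flow (172), anti-Gr1 (47.0), clodronate (27.6) and anti-GPIba (10.3) to PBS high flow (1.15) and IgG high flow (0.830). Libraries of neighbours in this order overlapped except between IgG low flow and anti-Gr1 and between anti-GPIba and PBS high flow. For Tek the order was PBS high flow (313 FPKM), IgG high flow (297), anti-GPIba (162), anti-Gr1 (95.9), clodronate (90.3), IgG low flow (82.8) and PBS low flow (50.4), with overlap between the first 2, between anti-Gr1 and clodronate, and between clodronate and IgG low flow.

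**Figure D4:**
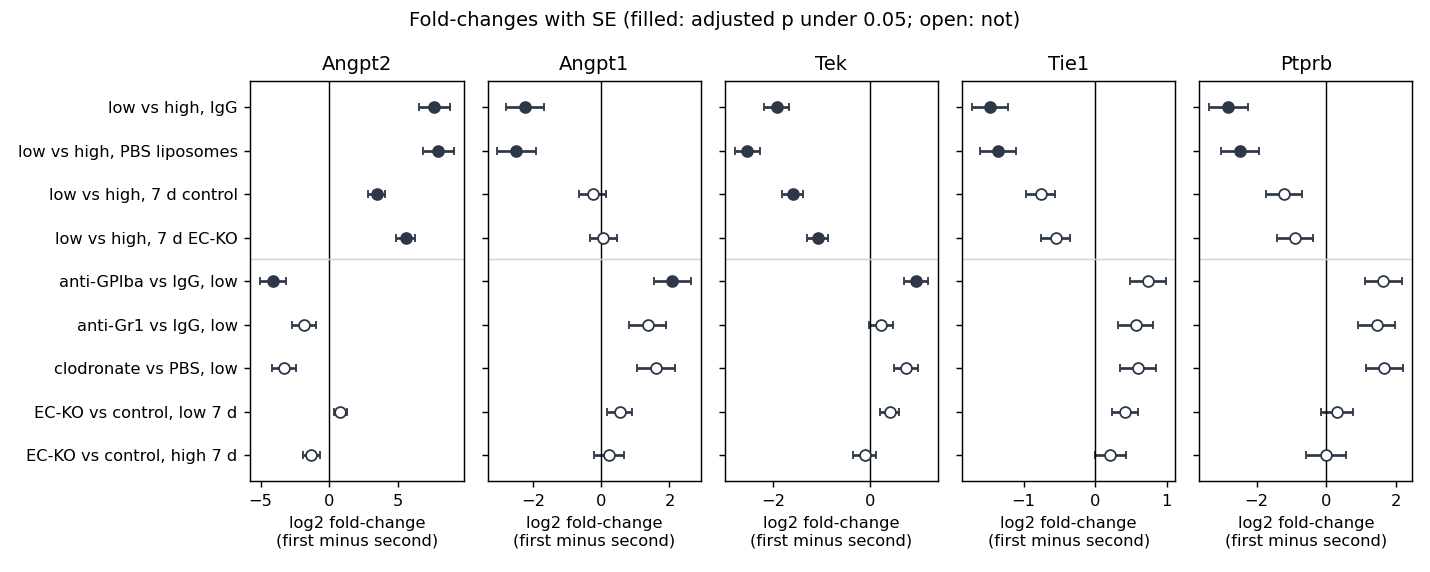
Log2 fold-change with its SE for the 5 genes in the tested flow comparisons within an agent or genotype (above the line) and the depletion and genotype comparisons (below it), filled where the adjusted p was under 0.05 and open where it was not. Angpt2 lies to the right and Tek to the left in all 4 flow comparisons, from 3.45 to 7.90 and from -2.53 to -1.08.

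At 7 d the deletion was checked first. Rbfox2 stood at 3.27, 5.73 and 2.74 FPKM in control low-flow libraries 1, 4 and 5 and at 1.09, 0.169 and 0.622 FPKM in EC-KO low-flow libraries 1, 4 and 5. At high flow it was 3.66 and 3.84 FPKM in controls and 0.791 and 1.05 FPKM in EC-KO. The groups did not overlap, with log2 fold-changes of -2.61 (SE 0.58, adjusted p = 0.692) and -2.06 (SE 0.69, adjusted p = 1.0) and unadjusted p-values of 0.00116 and 0.014 in edgeR. For EC-KO against control, edgeR called 0 and 1 of 13352 genes at low and high flow, while 880 and 293 had an unadjusted p below 0.05 and 16 and 29 were called by DESeq2. Without control low-flow library 1, edgeR called 1476 genes at low flow, and 0 without any other single library.

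Angpt2 was also higher at low flow at 7 d, in both genotypes. Controls held 20.8, 26.2 and 19.0 FPKM at low flow (libraries 1, 4 and 5) and 2.83 and 0.953 FPKM at high flow (libraries 4 and 5). EC-KO arteries held 19.1, 63.2 and 28.5 FPKM at low flow and 0.679 and 0.883 FPKM at high flow. The difference was 10.9-fold in controls (log2 3.45, SE 0.62, adjusted p = 0.0301) and 46.9-fold in EC-KO (log2 5.55, SE 0.69, adjusted p = 0.0121). Its control call was lost without high-flow library 4 (0.13) or 5 (0.277) or low-flow library 4 (0.0624) or 5 (0.0627), and its EC-KO call without high-flow library 4 (0.177) or 5 (0.128). With the groups fitted alone the control call was lost as well (adjusted p = 0.184). The 48 hr and 7 d libraries differed in age, sex and labelled genetic background (C57BL/6J at 48 hr and a C57 background at 7 d), and were not tested against each other.

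Tek was the other member called in both genotypes at 7 d. It stood at 100.4, 108 and 77.9 FPKM (low) and 275 and 269.7 FPKM (high) in controls, and at 122, 138 and 108 FPKM (low) and 246 and 272 FPKM (high) in EC-KO. It was 3.03-fold lower at low flow in controls (log2 -1.60, SE 0.21, adjusted p = 0.0121) and 2.12-fold lower in EC-KO (log2 -1.08, SE 0.21, adjusted p = 0.0487). So 2 of 5 members passed in each genotype, where 2.4% and 1.09% of genes did. The control call for Tek was lost without high-flow library 4 (0.13) or 5 (0.138) or low-flow library 5 (0.0514) and with the groups fitted alone (0.184), and the EC-KO call without any 1 of the 5 libraries (0.115 to 0.364), with RLE scaling (log2 -1.05, adjusted p = 0.0553) and with endothelial marker scaling (log2 -0.59, adjusted p = 0.113).

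Tie1 and Ptprb did not pass at 7 d in the fit without a replicate block. Tie1 in controls was 159, 141 and 134 FPKM at low and 229 and 233 FPKM at high flow (log2 -0.76, SE 0.20, adjusted p = 0.0642). In EC-KO it was 189, 216 and 164 FPKM at low and 295 and 259 FPKM at high flow (log2 -0.55, SE 0.20, adjusted p = 0.225). Ptprb in controls was 204, 40.3 and 89.2 FPKM at low and 229 and 254 FPKM at high flow (log2 -1.22, SE 0.51, adjusted p = 0.175), and 162, 132 and 106 against 234 and 263 FPKM in EC-KO (log2 -0.91, SE 0.51, adjusted p = 0.421). Without control low-flow library 1, which carries the run prefix of the treated low-flow libraries, Tie1 (adjusted p = 0.0101) and Ptprb (0.00423) passed in controls, where 29.4% of genes were called. With the library number as a replicate block, 4 of 5 members were called in controls, Tie1 (log2 -0.79, adjusted p = 0.0233) and Ptprb (-1.79, 0.0151) among them, where 2940 of 13352 genes were called in place of 320. In EC-KO the block left the members called at 2, where 1317 genes were called in place of 146.

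Angpt1 showed no separation by flow at 7 d. It was 5.71, 2.59 and 4.09 FPKM at low and 6.46 and 2.85 FPKM at high flow in controls, and 6.01, 5.43 and 6.21 against 6.08 and 5.11 FPKM in EC-KO. The groups overlapped in both genotypes, with log2 fold-changes of -0.25 (SE 0.40, adjusted p = 0.728) and 0.06 (SE 0.40, adjusted p = 0.96). Endothelial markers at 7 d summed to 2261 to 3399 FPKM at low and 4967 to 5262 FPKM at high flow.

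No member was called between EC-KO and control, at low flow (0.0% of genes called) or high flow (0.00749%), and none with the block (0.0% and 0.03%). At low flow Angpt2 differed by 0.79 (SE 0.47, log2, adjusted p = 0.692) with overlap, and Tek by 0.40 (SE 0.19, adjusted p = 0.692) and Tie1 by 0.42 (SE 0.18, adjusted p = 0.692) without overlap, as for 7.91% of all genes tested. The Tek groups were barely apart, at 108.4 FPKM in the lowest EC-KO and 108.2 FPKM in the highest control library. Angpt1 differed by 0.54 (SE 0.36, adjusted p = 0.702) and Ptprb by 0.31 (SE 0.47, adjusted p = 0.867), with overlap. Within library numbers 1, 4 and 5, Angpt1, Tek and Tie1 were higher in EC-KO in 3 of 3 pairs, and Angpt2 and Ptprb in 2 of 3. At high flow Angpt2 differed by -1.31 (SE 0.64, adjusted p = 1.0) and Tie1 by 0.21 (SE 0.22, adjusted p = 1.0), both without overlap, as for 38.4% of all genes tested. At low flow the fibroblast markers summed to 496, 1584 and 476 FPKM in EC-KO libraries 1, 4 and 5 and to 425, 193 and 122 FPKM in controls 1, 4 and 5, without overlap, while macrophage sums (734 to 1429 and 293 to 1341 FPKM) overlapped. Their part in the member levels was not tested. The difference of the flow effect between genotypes was 2.10 (SE 0.79, log2) for Angpt2, at an unadjusted p of 0.024 and an adjusted p of 0.986 in edgeR. For that test 0 of 13352 genes were called (538 with an unadjusted p under 0.05, 21 by DESeq2).

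In culture, with 1 library per condition and intervals for counting error only (exact Poisson, 95%), Angpt2 varied with what was added to the cell line. The line without additions held 45.1 FPKM (42.8 to 47.4), with platelets and macrophages 20.5 FPKM (19.0 to 22.1), with 10% plasma 8.90 FPKM (7.91 to 9.99) and with all 3 additions 1.28 FPKM (0.949 to 1.70). Angpt1 was 0.815, 0.362, 0.655 and 0.295 FPKM in the same order. The receptors were low: Tek 0.428 to 1.31 FPKM (27 to 97 counts), Tie1 1.05 to 2.87 FPKM (55 to 157 counts) and Ptprb 0.980 to 3.82 FPKM (181 to 631 counts). The line, labelled as aortic endothelial, also held little of the endothelial markers Cldn5 (0.161 to 0.784 FPKM) and Cdh5 (1.86 to 5.75 FPKM), while Pecam1 stood at 53.1 to 82.9 FPKM. The macrophage marker sums were 16.3, 385, 44.7 and 263 FPKM and the fibroblast sums 250, 179, 78.1 and 70.8 FPKM in the order given for Angpt2, and their part was not tested. The conditions were not tested against each other.

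Primary aortic endothelial cells held the receptors. Cells sorted for eGFP after Cdh5(PAC)-CreERT2 recombination and grown for 5 days had 68.1 FPKM of Angpt2 (63.4 to 73.0), 0.255 of Angpt1 (5 counts), 15.7 of Tek, 56.1 of Tie1 and 21.1 of Ptprb. Cells sorted for CD31 and Icam2 and grown for 7 days had, in the Rbfox2 control, 38.7 FPKM of Angpt2 (36.7 to 40.9), 1.49 of Angpt1, 19.2 of Tek, 129 of Tie1 and 80.9 of Ptprb. The Rbfox2 EC-KO cells, with Rbfox2 at 0.675 against 9.33 FPKM, had 79.3 FPKM of Angpt2 (75.7 to 83.0), 1.38 of Angpt1, 22.2 of Tek, 147 of Tie1 and 94.2 of Ptprb. Angpt2 thus differed between these cultures beyond counting error, with no replicate check, and the macrophage markers differed as well (333.9 FPKM in control, 1.93 in EC-KO). Mural markers summed to 3372 FPKM in the control and 2674 FPKM in the EC-KO cells, beside endothelial sums of 2385 and 2661 FPKM, and to 1633 beside 2563 FPKM in the eGFP-sorted cells. Tie1 exceeded Tek by 3.56-fold to 6.70-fold in the 3 primary libraries.

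**Figure D5:**
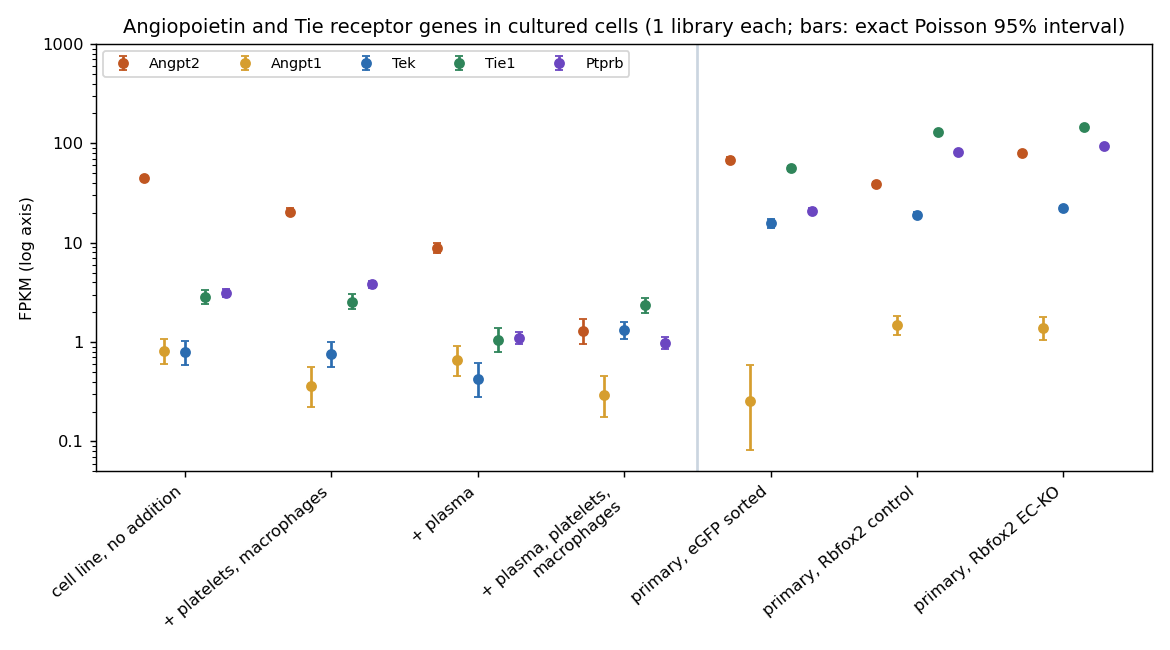
FPKM of the 5 genes on a log axis in the 4 cell line and 3 primary cell libraries, with exact Poisson 95% intervals. Angpt2 runs from 45.1 down to 1.28 FPKM across the cell line, and Tek, Tie1 and Ptprb are higher in each primary library than in any cell line library.

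Genes that act with the Tie receptors were followed as a list of 31, of which 28 passed the filter in the treated and 29 in the 7 d experiment. The list was drawn up with earlier results known, so its counts are a description. With IgG, 4 rose and 6 fell at low flow (35.7% of those tested, beside 40.5% of all genes), and the median log2 fold-change was -0.34, beside 0.07 over all genes. Kdr, the VEGF receptor, was higher (log2 3.07, SE 0.91, adjusted p = 0.0207), as were Dok2, an adaptor that binds activated Tek (3.00, SE 0.48, adjusted p = 0.00149), and Mmp14, a membrane protease that sheds receptors (2.10, SE 0.51, adjusted p = 0.00816). Vwf, the cargo of the granules that store Angpt2 (-2.50, SE 0.50, adjusted p = 0.00375), and Nos3, the endothelial nitric oxide synthase (-2.10, SE 0.27, adjusted p = 0.000689), were lower. Kdr was low in these 4 libraries, at 0.322 to 0.693 FPKM (high) and 4.01 to 5.10 FPKM (low).

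With PBS liposomes 4 of 28 rose and 7 fell (39.3%, beside 35.0% of all genes, median -0.19). Dok2 (2.80, SE 0.48), Mmp14 (1.74, SE 0.50) and Ptpn11, a phosphatase that docks on Tek (1.39, SE 0.24), rose, and Nos3 (-2.02, SE 0.27) and the kinase subunit gene Pik3ca (-1.05, SE 0.21) fell. Platelet depletion at low flow changed 4 of 28 (14.3%, beside 16.5% of all genes). Against the high flow of the control agent, 7 of 28 were called with anti-GPIba, 5 with anti-Gr1 and 3 with clodronate, beside 7.7%, 13.1% and 7.41% of all genes. Of the 4 changed by platelet depletion, Mmp14 (-2.13, SE 0.51, adjusted p = 0.0283), Dok2 (-2.13, SE 0.46, adjusted p = 0.0232) and Rhoa (-0.64, SE 0.20, adjusted p = 0.0485) fell and Tnip2, an adaptor that inhibits NF-kB signalling, rose (0.97, SE 0.25, adjusted p = 0.0318). Dok2 is also expressed by leukocytes, whose markers moved in the same comparisons. At 7 d Nos3 alone was called of 29 (3.45%, beside 2.4% and 1.09% of all genes), lower at low flow in controls (-1.19, SE 0.20, adjusted p = 0.0261) and EC-KO (-1.48, SE 0.20, adjusted p = 0.0154). For anti-Gr1 against IgG and clodronate against PBS liposomes at low flow, and for EC-KO against control, 0 of the list passed.

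Of 6 angiopoietin-like genes, which do not bind Tek, 5 passed the filter, and 2 of 5 were called in each treated flow comparison, near the shares of all genes. Angptl4, a secreted inhibitor of lipoprotein lipase, rose at low flow with IgG from 0.523 ± 0.504 to 94.8 ± 15.6 FPKM (SD, n = 2 each, log2 7.45, SE 0.92, adjusted p = 0.000651) and with PBS liposomes (log2 4.48, SE 0.75, adjusted p = 0.00167). It fell with platelet depletion to 7.35 ± 3.05 FPKM (n = 2, log2 -3.72, SE 0.72, adjusted p = 0.021). Angptl2 fell at low flow in both arms (-1.18, SE 0.31, adjusted p = 0.0124, and -1.44, SE 0.31, adjusted p = 0.00577). At 7 d 0 of 5 were called in each comparison.

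Over the 33 artery libraries of the 3 experiments, centred within each experiment, the genes most like Angpt2 among 10472 were Tyrobp (Pearson r = 0.94), Acta2 (0.94), Nek6 (0.94), Gadd45a (0.94) and Hbegf (0.93). Tyrobp is a myeloid adaptor and Acta2 the smooth muscle actin. Those most like Tek were Sdpr (0.97), Lox (0.96), Mapk14 (0.96), Emp2 (0.95) and Btbd3 (0.95). These correlations describe libraries that share a flow and treatment design: within groups the same r fell to between 0.31 and 0.74 for Angpt2 and between 0.41 and 0.81 for Tek. Without centring, 1 of each 5 stayed among the top 5, and with Spearman's rank correlation 3 did. Among the members, Angpt2 and Tek had r = -0.91 over the 33 libraries and -0.35 within groups, and Tek and Tie1 0.79 and -0.00.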

How the data were processed

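Intimal or cultured-cell RNA was amplified with a SMARTer kit and sequenced with paired reads of 150 bp, of 80 bp (again at 100 bp) for the untreated pools, or of 100 bp for 2 liposome libraries and the eGFP-sorted cells. The authors estimated expected counts per gene with RSEM 1.2.15 on mm9 RefSeq transcripts and deposited them, with transcript lengths, in 1 table. STAR 2.5.1b is named for mapping, and for the untreated pools the methods name TopHat, with a stranded library type, and a legend STAR; the RSEM options listed set no strand. The table holds 206 value columns, of which 147 were not used; the unnamed entry held at most 0.1175% of counts and was left out.

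Estimated counts (4.7% to 19.32% not whole in a library) were rounded. FPKM was computed from counts, effective length and library total. Comparisons used edgeR 4.0.16 (R 4.3.3): filterByExpr, TMM, quasi-likelihood test with all groups of an experiment fitted together, Benjamini-Hochberg adjustment over all genes tested, threshold 0.05. The scripts were tested on simulated counts. DESeq2 1.42.0, RLE, endothelial marker scaling, library totals, no filter, groups fitted alone, a replicate block, reads trimmed to 100 bp and leaving out libraries were alternatives, of which library totals, trimmed reads and leaving out both libraries 1 at 7 d were chosen after seeing the data. For the untreated pools the first run with 100 bp reads was used, and the repeat run of the 2 libraries sequenced again at 7 d. At 7 d, low-flow EC-KO and control libraries of equal number deviated together from their group means. The deviations correlated at 0.162 to 0.486 over 3 pairs, and at -0.321 to 0.105 over the 6 unequal ones. Deviations within a group cancel, so the unequal pairs are no separate support. The labels do not say what a number marks. Libraries are pools, so p-values measure the spread between pools. Members, gene lists and tests were chosen with earlier results of these data known. Named besides the members are at most the 5 called list genes of largest fold-change per comparison, and the 5 genes of highest Pearson r of log2(CPM + 1) with Angpt2 and with Tek at a mean CPM of at least 5.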

Additional observations from a re-analysis of the deposited data

Results flagged for a closer look

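A low-flow library with PBS liposomes and another with clodronate liposomes, sequenced with 100 bp reads and used in no comparison, also held Angpt2 above the highest high-flow 48 hr level of 1.58 FPKM. The PBS library had 176 FPKM (exact Poisson 95% interval 169 to 184) and the clodronate library 34.4 FPKM (31.4 to 37.6), each from 1 library with no replicate check. Tek stood at 48.8 and 50.3 FPKM, Tie1 at 69.4 and 73.8 FPKM, Ptprb at 36.0 and 69.1 FPKM and Angpt1 at 0.438 and 0.431 FPKM (9 and 10 counts) in the PBS and clodronate library. The 150 bp clodronate libraries held 7.98 and 47.2 FPKM of Angpt2.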

How the results depend on the processing

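With 2 or 3 libraries per group, many calls were lost when a single library was left out, and high-flow Angpt2 and low-flow Angpt1 rested on few counts. Over the single members, 299 of 370 values with 1 library left out kept direction and call, 43 lost the call, 5 gained it and 23 changed sign. Of 594 values under other alternatives, 548 kept both, 11 lost the call, 26 gained it and 9 changed sign. Where a call changed, the cause was not tested. A second run of the untreated pools, and sums of repeat runs, were not analysed here, because those columns could not each be tied to 1 sample.

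Members called for anti-GPIba against IgG were 3, and 5 with DESeq2, with the groups alone and with the replicate block (27.3%, 34.5% and 24.7% of genes called, against 16.5%). For clodronate against PBS liposomes they were 0, and 2 with DESeq2 (3.6% of genes). For anti-GPIba at low flow against IgG high flow they were 1, but 3 with DESeq2 (16.3%), 2 with RLE scaling (8.31%) or no filter (6.85%), 4 with the groups alone (16.1%) and 0 with endothelial marker scaling (5.47%). For clodronate at low flow against PBS high flow the groups alone gave 0 in place of 2 (0.0% of genes). In 7 d controls they were 2, but 0 with the groups alone (0.0234% of genes) and 4 without both libraries 1 (29.2%), an alternative chosen after seeing the data, under which 374 genes and 0 members were called between genotypes at low flow (0.0% to 11.1% of genes and 0 members with 1 library left out). In 7 d EC-KO they were 2, and 1 with RLE (0.989% of genes) or endothelial marker scaling (2.86%). With each library left out in turn, members called, and the share of all genes called in the same fits, ranged over 4 to 5 and 15.3% to 30.4% (IgG flow), 3 to 5 and 10.7% to 27.4% (PBS flow), 0 to 0 and 0.00719% to 0.638% (anti-GPIba against IgG), 0 to 3 and 0.0% to 6.69% (clodronate against PBS), 0 to 0 and 0.00719% to 3.78% (anti-GPIba low against IgG high), 1 to 3 and 3.1% to 9.55% (anti-Gr1 low against IgG high), 1 to 2 and 0.55% to 12.3% (clodronate low against PBS high), 0 to 4 and 0.0216% to 29.4% (7 d controls) and 0 to 1 and 0.00724% to 0.113% (7 d EC-KO).

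Sign changes were of values that were not called. Endothelial marker scaling gave -0.17 for Tie1 and -0.17 for Ptprb (anti-GPIba against anti-Gr1), -0.0905 for Angpt2 and -0.24 for Tie1 (PBS minus IgG flow effect) and 0.39 for Angpt1 (7 d controls). Library totals gave -0.072 for Tie1 (PBS minus IgG) and 0.0405 for Ptprb (EC-KO against control, high flow), where no filter gave 0.0104. With a library left out, the PBS minus IgG flow effect ranged from -0.60 to 0.15 (Angpt1), -0.90 to 0.95 (Angpt2), -0.0339 to 0.29 (Tie1) and -0.13 to 1.08 (Ptprb), and anti-GPIba against anti-Gr1 from -0.13 to 0.42 (Tie1) and -0.14 to 0.61 (Ptprb). At 7 d the ranges were -0.71 to 0.42 for Angpt1 in controls, -0.0259 to 0.12 for Angpt1 in EC-KO and -0.10 to 1.05 for Ptprb between genotypes at low flow. At high flow between genotypes they were -0.23 to 0.90 (Angpt1), -0.23 to 0.008 (Tek) and -0.13 to 0.13 (Ptprb), and for the genotype difference of the flow effect -0.36 to 0.77 (Angpt1) and -0.11 to 1.05 (Ptprb).

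Over all treated samples, equal library numbers were not shown to pair: deviations from the group means correlated at a median r of 0.025 over 21 pairs (-0.158 to 0.411, 7 over 0.1). Among the liposome libraries, r was 0.345 for PBS high with PBS low flow. Clodronate correlated at 0.392 with PBS low flow, 0.411 with PBS high flow and 0.369 with IgG low flow, which is of another arm. At 7 d the median was 0.162 over 13 equal pairs (-0.03 to 0.486, 9 over 0.1) and -0.1 over 24 unequal ones. Each equal pair was over 0.1 between genotypes at low flow, where the block changed no call; low and high flow share only 2 numbers. The replicate block raised genes called from 2216 to 3307 (anti-GPIba against IgG), from 320 to 2940 (7 d controls) and from 146 to 1317 (7 d EC-KO), raised members called in 7 d controls to 4, also 4 without both libraries 1 (3950 of 13159 genes called), and gave -0.0523 for Angpt1 in 7 d EC-KO.

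Scaling moved the median of all genes by over 0.1 in several comparisons: with endothelial markers from -0.04 to -0.40 for anti-GPIba against IgG (genes higher and lower 811 and 1405, then 363 and 2440) and from 0.04 to 0.69 in 7 d controls (128 and 192, then 3561 and 138), and with library totals from -0.07 to -0.70 in untreated low against high flow (2790 and 2701, then 1142 and 3953), where Angpt2 was 6.95.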
